A study of Mus musculus with 6 samples.

Results

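The glandular (tissue) kallikreins described here are Klk1 and 9 of its mouse-specific Klk1b relatives: Klk1b1, Klk1b5, Klk1b8, Klk1b11, Klk1b21, Klk1b22, Klk1b24, Klk1b26 and Klk1b27. They are 10 of the 54532 genes in the files, found by symbol through the GRCm38 annotation of GENCODE. The set was picked for large rises in the KO libraries, so its KO against WT values are given as a description and carry no test. Kallikreins are secreted serine proteases of the trypsin type. Klk1 releases kinins from kininogens, and the Klk1b genes arose from it by duplication in rodents and are best known from the salivary gland, where several process growth factors or bind them under androgen control. In the mouse testis, Klk1b21, Klk1b24 and Klk1b27 are known as products of Leydig cells, the androgen-making cells between the tubules.

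The libraries came from mouse testis cells enriched for pachytene spermatocytes by STA-PUT, which sorts cells by how fast they sink, at about postnatal day 80. The WT group carried no named allele. The second group was MAPS KO (MAPS-/-), here KO. The last group, MAPS EE-KO (MAPSEE;MAPS-/-), here EE_KO, is labelled as overexpression of MAPS on the KO background, so it carries the knockout too. Each group had 2 libraries, from 3 mice of one genotype over 2 experiments, and the sources used here do not say what EE stands for, what drives it, or whether a library pools mice. The p-values therefore measure only the spread between these samples, which may be technical.

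The values were FPKM, which scales reads to gene length and to a size set for each library. FPKM times gene length gave whole reads for 96.8 to 97.0% of values above 0, for 14178387 to 16565238 reads on genes per library. The size inferred from the values was below the reads on genes in every WT and EE_KO library. It was above them in both KO libraries. KO values therefore stand lower against WT than scaling to reads on genes would give. The main KO against WT differences and shares of calls carry this scaling, and its reason was not tested. The MAPS gene 1700102P08Rik stood at 157 and 150 FPKM in WT, 7.97 and 10.1 in KO and 109 and 82.2 in EE_KO. Of 10 pachytene markers, limma called 9 lower in KO against WT, where 48.2% of all genes tested were called lower. The summed level of the 10 markers was 5313 to 5860 FPKM in WT and 252 to 299 in KO. The markers did not fall alike: Sycp3 read 74.0 and 72.8 FPKM in WT and 42.4 and 54.9 in KO, and Sycp1, the marker that limma did not call, read 43.2 and 47.9 in WT and 38.0 and 41.9 in KO. In such bulk samples, fewer cells of a type and less RNA per cell cannot be told apart.

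The members lie in one cluster of 279 kb on chromosome 7 (GRCm38, 43950664 to 44229618, plus strand), which holds 23 Klk genes and pseudogenes, 14 of them protein-coding. Every member has 5 exons, and their coding sequences run from 780 to 792 bases. Reads of genes this similar are hard to assign. Over the 45 pairs of members, coding sequences were 82.3 to 95.2% identical, with a median of 86.7%. The closest pair was Klk1 and Klk1b5 at 95.2%, followed by Klk1b21 with Klk1b24 and with Klk1b27, both at 94.0%. The longest coding stretch that Klk1b21 and Klk1b24 share base for base is 117 bases, across exons 3 and 4, from 44105665 to 44105877 in Klk1b21 and from 44191538 to 44191749 in Klk1b24. It is shown because a short read inside it cannot be told apart between these genes:
Klk1b21 and Klk1b24: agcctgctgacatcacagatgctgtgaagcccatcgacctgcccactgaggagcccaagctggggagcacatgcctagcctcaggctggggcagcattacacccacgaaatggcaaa

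Such stretches cover a minor part of each transcript. Of all 100-base words in the GENCODE transcripts of a member, at most 5.26% (Klk1b5) occurred in another gene, and for Klk1b22 it was 0%. Of 50-base words, 12.8% (Klk1b11) to 33.9% (Klk1b24) were shared, and every gene that shared one was a Klk gene. The sources used here do not give the read length. The reads recovered from FPKM were whole numbers for all 10 members.

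The 250 bases before the RefSeq start (GRCm38.p6) were compared as well, since Klk1b21, Klk1b24, Klk1b27 and Klk1b22 had the 4 highest KO levels of the members. Upstream sequence of the 45 pairs was 73.1 to 97.7% identical over the aligned bases, with a median of 82.5%. Klk1b21 and Klk1b24 were the closest pair at 97.7% (5 differences in 215 bases), then Klk1b27 and Klk1b21 at 94.6%, then Klk1b27 and Klk1b24 at 91.9%. Klk1b22 was not part of this group, at 78.5% with Klk1b21, 80.0% with Klk1b24 and 80.4% with Klk1b27. The upstream sequences of these 4 and of Klk1b8, which had similar levels in all groups, are shown 5′ to 3′, all on the plus strand of chromosome 7, with TTTAAA in capitals:
Klk1b21, chr7:44102042-44102291: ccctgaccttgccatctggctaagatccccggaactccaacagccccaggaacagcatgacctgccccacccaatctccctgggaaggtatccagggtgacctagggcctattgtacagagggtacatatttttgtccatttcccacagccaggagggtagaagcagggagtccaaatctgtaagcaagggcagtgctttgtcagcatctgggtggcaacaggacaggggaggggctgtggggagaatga
Klk1b24, chr7:44187986-44188235: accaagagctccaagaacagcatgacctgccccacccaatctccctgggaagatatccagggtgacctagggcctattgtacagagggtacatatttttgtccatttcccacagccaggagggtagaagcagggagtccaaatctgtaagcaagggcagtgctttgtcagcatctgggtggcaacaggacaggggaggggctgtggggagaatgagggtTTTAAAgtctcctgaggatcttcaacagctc
Klk1b27, chr7:44052040-44052289: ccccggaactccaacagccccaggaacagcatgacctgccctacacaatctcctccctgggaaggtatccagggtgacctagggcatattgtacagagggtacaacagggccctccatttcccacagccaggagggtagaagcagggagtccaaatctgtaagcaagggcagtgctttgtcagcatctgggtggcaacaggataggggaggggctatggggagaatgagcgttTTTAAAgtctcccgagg
Klk1b22, chr7:44112423-44112672: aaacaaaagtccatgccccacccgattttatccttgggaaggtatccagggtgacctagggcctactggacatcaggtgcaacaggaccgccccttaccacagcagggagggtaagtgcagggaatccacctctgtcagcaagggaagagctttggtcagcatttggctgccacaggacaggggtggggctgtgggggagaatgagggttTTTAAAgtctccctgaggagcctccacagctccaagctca
Klk1b8, chr7:43950416-43950665: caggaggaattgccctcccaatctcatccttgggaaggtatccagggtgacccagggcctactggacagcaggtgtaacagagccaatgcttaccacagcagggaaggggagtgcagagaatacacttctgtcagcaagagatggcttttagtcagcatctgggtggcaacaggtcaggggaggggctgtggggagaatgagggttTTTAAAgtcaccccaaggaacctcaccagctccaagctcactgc

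TTTAAA, a form of the TATA box read the same on both strands, was found in 8 of 10 members, starting at positions -44 to -17 from the RefSeq start. It occurred in 12.1% of all 32851 RefSeq promoter windows of this length. In Klk1b21 the window has none, but the same letters lie just after the RefSeq start, which is upstream of the GENCODE start. TATAAA was found in 0 of 10 members, against 12.4% of all windows. AAGGTCA, a core for nuclear receptors such as Nr5a1, was found in Klk1b21 and Klk1 (4.08% of all windows), and AGAACA, a hormone receptor half-site, in Klk1b24 (16.1%). These are matches of letters on either strand, not sites of binding, and the motifs do not overlap each other. TTTAAA was added after the sequences were seen.

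**Figure D1:**
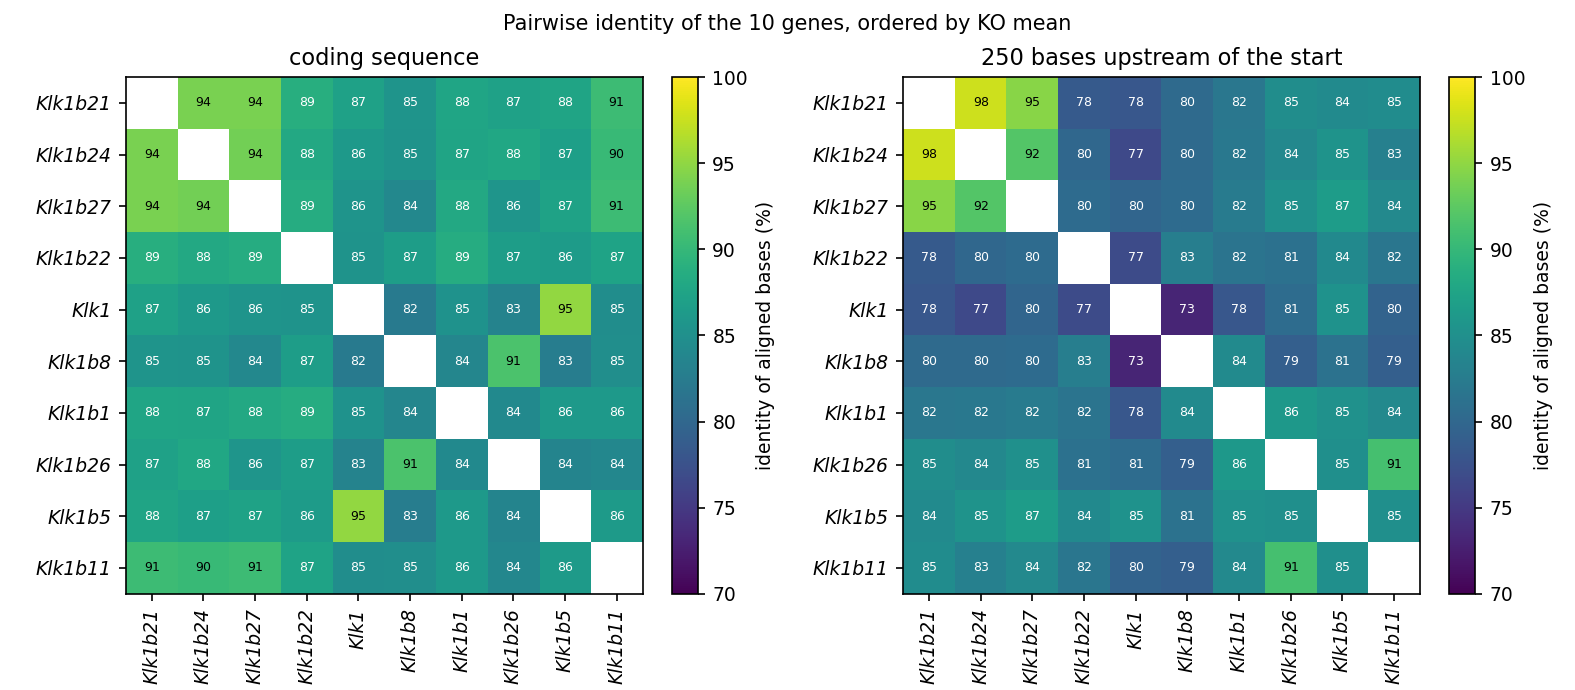
Percent identity of aligned bases for each pair of the 10 genes, which are ordered by KO mean from top to bottom, for coding sequence (left) and the 250 bases before the start (right). Klk1b21, Klk1b24 and Klk1b27 form the brightest block in the right panel, at 91.9 to 97.7%, and Klk1 and Klk1b5 are the closest pair on the left at 95.2%.

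The members did not act as a block in KO. The 4 highest, Klk1b21, Klk1b24, Klk1b27 and Klk1b22, stood between 0.334 and 2.62 FPKM in WT and between 28.5 and 154 in KO. Klk1 and Klk1b1 reached lower levels, and Klk1b8, Klk1b26, Klk1b5 and Klk1b11 had KO and WT libraries that overlapped. Both KO libraries lay above both WT libraries in 6 of 10 members. Over all 15366 genes tested, those with a mean of at least 1 FPKM over the 6 libraries, this held for 41.6%. The members were chosen on this contrast, so nothing is read from their share.

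**Figure D2:**
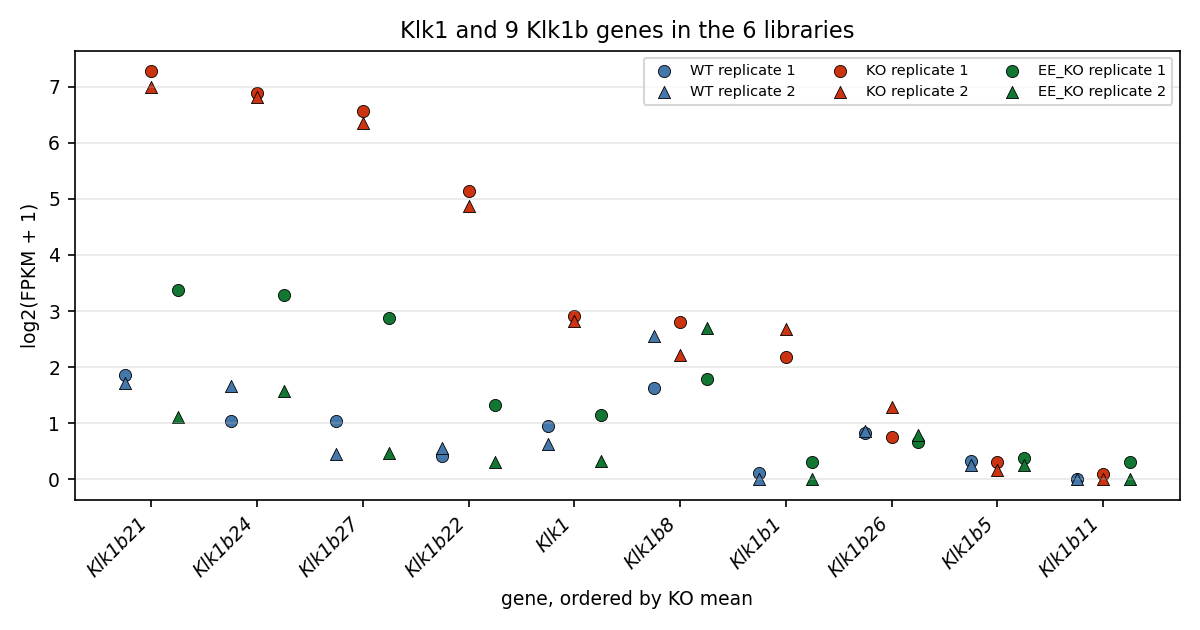
Level of each of the 10 genes on a log2(FPKM + 1) scale in the 6 libraries, by group (colour) and replicate (symbol), ordered by KO mean. KO points stand far above WT for the 4 genes at the left and overlap WT for Klk1b8, Klk1b26, Klk1b5 and Klk1b11, and EE_KO replicate 1 lies above EE_KO replicate 2 for the 4 at the left.

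Klk1b21 (ENSMUSG00000066516, chromosome 7, 44102328 to 44106583) stood at 2.62 and 2.28 FPKM in WT, 154 and 126 in KO, and 9.33 and 1.15 in EE_KO. It was the highest member in both KO libraries, with 2415 and 1907 reads against 32 and 30 in WT. Its KO mean of 140 ± 20.02 FPKM (SD, n = 2) was 57.2 times the WT mean of 2.45 ± 0.247. On the log2(FPKM + 1) scale, which understates changes of genes near 0, the difference was 5.35 (limma SE 0.60).

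Klk1b24 (ENSMUSG00000063713, 44188236 to 44192455) encodes another of the Leydig kallikreins and stood at 1.06 and 2.18 FPKM in WT. It read 118 and 112 in KO and 8.71 and 1.98 in EE_KO. The KO libraries were close to each other here, with a ratio of 1.06. The KO mean of 115 ± 4.43 FPKM was 70.9 times the WT mean of 1.62 ± 0.795, a log2 difference of 5.50 (SE 0.48).

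Klk1b27 (ENSMUSG00000063177, 44052290 to 44056712) had the largest ratio of the members. It stood at 1.04 and 0.372 FPKM in WT, 94.4 and 80.7 in KO, and 6.38 and 0.376 in EE_KO. The KO mean of 87.5 ± 9.63 FPKM was 124 times the WT mean of 0.708 ± 0.476, a log2 difference of 5.72 (SE 0.65). That WT mean rests on 18 reads over both libraries, so the ratio is loosely fixed.

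Klk1b22 (ENSMUSG00000060177, 44112673 to 44116922), one of the EGF-binding kallikreins, read 0.334 and 0.464 FPKM in WT, 34.2 and 28.5 in KO, and 1.52 and 0.234 in EE_KO. Its KO mean was 31.3 ± 4.03 FPKM and its WT mean 0.399 ± 0.0915, the latter from 10 reads, a ratio of 78.5 and a log2 difference of 4.53 (SE 0.31). Klk1b22 shared no 100-base word with another gene.

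The order Klk1b21, Klk1b24, Klk1b27, Klk1b22 held in both KO libraries and in EE_KO replicate 1. The KO libraries of neighbours in this order did not overlap, and the narrowest gap lay between the lower Klk1b21 library (126 FPKM) and the higher Klk1b24 library (118 FPKM). With 2 libraries a group, this order was not tested. These 4 genes held 95.9 and 95.4% of the summed FPKM of all 10 members in KO, 55.1 and 45.3% in WT, and 83.8 and 36.1% in EE_KO.

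Klk1 (ENSMUSG00000063903, 44225360 to 44229618), the kinin-releasing enzyme, was lower. It stood at 0.929 and 0.552 FPKM in WT, 6.51 and 6.09 in KO, and 1.20 and 0.248 in EE_KO, with a KO mean 8.51 times the WT mean. Its log2 difference was 2.08 (SE 0.27). Gm10109, a pseudogene on the minus strand that overlaps Klk1, was lower in KO than in WT, at 0.620 and 0.681 against 1.89 and 1.61 FPKM, so it moved the other way. The sources used here do not say whether strand was used in counting.

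Klk1b1 (ENSMUSG00000063133, 43966751 to 43971318) had almost no reads outside KO. It was listed at 0.0824 and 0 FPKM in WT, where 3 reads in replicate 2 would have given 0.229, and at 3.53 and 5.38 in KO. EE_KO read 0.236 and 0. The KO libraries held 55 and 81 reads against 1 and 0 in WT, too few for a ratio.

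The other 4 members went with neither of these patterns. Klk1b8 (ENSMUSG00000063089, 43950664 to 43954941) stood at 2.08 and 4.85 FPKM in WT, 5.96 and 3.62 in KO, and 2.46 and 5.44 in EE_KO, and was the highest member in WT replicate 2 and EE_KO replicate 2. Its log2 difference of 0.42 in KO (SE 0.39) was near the spread and turned to -0.04 without WT replicate 1. Klk1b26 (ENSMUSG00000053719, 44012168 to 44016968), which also binds EGF, read 0.773 and 0.810 FPKM in WT, 0.683 and 1.45 in KO, and 0.591 and 0.723 in EE_KO. Its KO values fell on either side of WT.

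Klk1b5 (ENSMUSG00000066512, 44215945 to 44220703) read 0.257 and 0.190 FPKM in WT, 0.240 and 0.124 in KO, and 0.295 and 0.192 in EE_KO. Klk1b11 (ENSMUSG00000044485, 43995877 to 43999875) was listed at 0 in both WT libraries, at 0.0645 and 0 in KO, and at 0.237 and 0 in EE_KO, or no more than 3 reads in any library. Both are near the limit of detection. They are also among the closest relatives of members that were high in KO: Klk1b5 is 95.2% identical to Klk1, and Klk1b11 is 90.6% identical to Klk1b21 and 90.5% to Klk1b27. Klk1b5, Klk1b11 and Klk1b26 had means under 1 FPKM and were not tested, which leaves 7 of 10 members with a test. Klk1, Klk1b1, Klk1b22 and Klk1b27 had WT and KO means on either side of that limit, so they passed it through their KO libraries.

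EE_KO against WT asks how the members stood in the libraries labelled as MAPS overexpression on the KO background, where the MAPS gene itself read below both WT libraries. That contrast was not used to choose them, although it shares the WT libraries with it. Limma called 0 of the 7 members tested at an adjusted p below 0.05, and 0 at an unadjusted p below 0.05 (smallest 0.0577). Limma's voom on recovered reads also called 0. Of all 15366 genes, 0.0456% were called. The largest differences were Klk1b24 at 1.07 on the log2 scale (SE 0.48, adjusted p = 0.682) and Klk1b27 at 0.93 (SE 0.65, adjusted p = 0.839). Klk1b21 stood at 0.45 (SE 0.60, adjusted p = 0.923), Klk1b22 at 0.34 (SE 0.31, adjusted p = 0.879), Klk1b8 at 0.16 (SE 0.39), Klk1b1 at 0.10 (SE 0.21) and Klk1 at -0.06 (SE 0.27). The EE_KO and WT libraries overlapped in 9 of 10 members, and of all genes tested 36.5% had groups that did not overlap. Klk1b26 was the member with both EE_KO libraries below both WT libraries. These SEs are wide enough that moderate differences in either direction would not have been called.

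The EE_KO libraries differed from each other. Replicate 1 was above replicate 2 by 17.0 times for Klk1b27, 8.11 times for Klk1b21, 4.86 times for Klk1 and 4.40 times for Klk1b24. Replicate 2 held 5, 15, 4 and 26 reads of these genes in turn, so the ratios are loosely fixed. In replicate 1 these genes stood above both WT libraries, and in replicate 2 Klk1b24 and Klk1b27 lay within the WT range and Klk1b21 and Klk1 below it. Without EE_KO replicate 1, the difference from WT turned to -0.68 for Klk1b21, -0.28 for Klk1b27 and -0.18 for Klk1b22, while Klk1b24 stood at 0.22. Without EE_KO replicate 2 it was 1.58 for Klk1b21, 2.14 for Klk1b27, 1.92 for Klk1b24 and 0.85 for Klk1b22. These fits rest on 1 EE_KO library and hold none of the spread between the EE_KO libraries. Only the differences are given for them. With all libraries and the replicate number as a block, 1 of 7 members had an unadjusted limma p below 0.05 (0.0445), and 0 after adjustment. Klk1b8 and Klk1b26 did not share this pattern: their replicate 1 to replicate 2 ratios were 0.453 and 0.818.

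EE_KO replicate 1 held 6.66% of the KO mean of Klk1b21, 7.58% of Klk1b24, 7.28% of Klk1b27 and 4.84% of Klk1b22. EE_KO replicate 2 held 0.429 to 1.72% of these. Both EE_KO libraries were below both KO libraries in 6 of 10 members, Klk1b21, Klk1b22, Klk1b24, Klk1b27, Klk1 and Klk1b1, against 41.8% of all genes tested. EE_KO against KO shares the KO libraries that chose the members, so it is a description. The fitted differences were -4.90 for Klk1b21 (SE 0.60), -4.79 for Klk1b27 (SE 0.65), -4.43 for Klk1b24 (SE 0.48), -4.19 for Klk1b22 (SE 0.31), -2.27 for Klk1b1 (SE 0.21) and -2.14 for Klk1 (SE 0.27).

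Markers of Leydig cells moved with the members. Lhcgr and Prlr passed the limit of 1 FPKM through their KO libraries, so no count of calls is given for this list. All 13 markers were higher in both KO libraries than in both WT libraries, against 41.6% of all genes tested. None of the 13 was at 0. Their summed level was 83.3 and 139 FPKM in WT, 2485 and 2360 in KO, and 210 and 110 in EE_KO. Cyp11a1, which makes pregnenolone from cholesterol, read 2.96 and 3.86 FPKM in WT and 84.8 and 78.3 in KO. Star, which brings cholesterol into mitochondria, read 5.21 and 6.09 in WT and 78.8 and 89.0 in KO. The ratios of KO to WT means ran from 2.43 (Fdx1) to 54.0 (Hsd3b6) over the 13 markers. The kallikreins were chosen for large ratios, so theirs are not set against these.

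The summed FPKM of Klk1b21, Klk1b22, Klk1b24 and Klk1b27 came to 6.07 and 3.82% of the summed Leydig markers in WT. It came to 16.1 and 14.7% in KO and to 12.3 and 3.40% in EE_KO. These kallikreins were taken for their high KO levels, so a larger share in KO follows in part from that choice. The shares are a description, and nothing is read from their rise. In EE_KO replicate 1, 11 of the 13 markers read above replicate 2, and 10 above both WT libraries. Their ratio of replicate 1 to replicate 2 ran from 0.809 (Hsd3b1) to 3.07 (Lhcgr), with a median of 1.63. The part of Leydig cell RNA in the rise of the kallikreins was not tested.

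**Figure D3:**
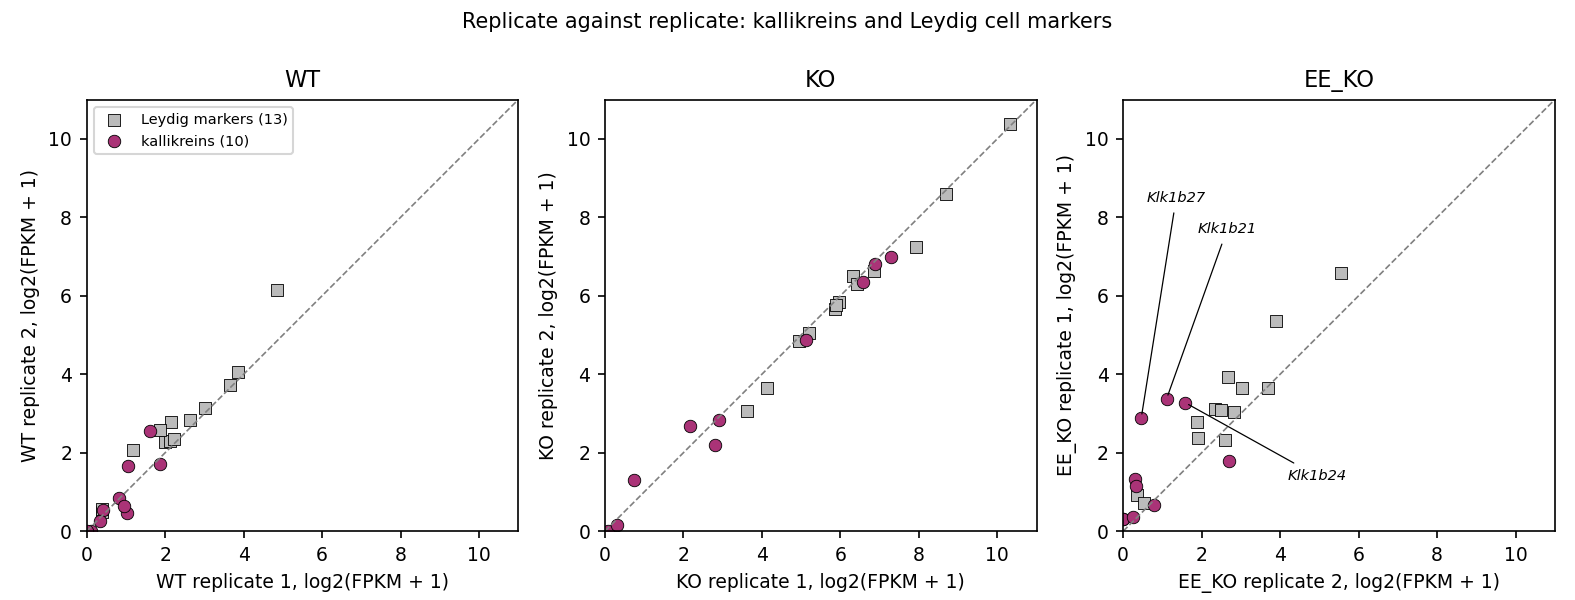
Each panel sets the 2 libraries of a group against each other on log2(FPKM + 1) axes, with the 10 kallikreins (circles), the 13 Leydig markers (squares) and a dashed line of equality. Points follow the line in KO, while in EE_KO Klk1b21, Klk1b24 and Klk1b27 lie above it in replicate 1.

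Markers of other somatic cells were also higher in KO, with exceptions. All 14 Sertoli markers were higher in both KO libraries than in both WT libraries, against 41.6% of all genes tested. This share applies to the lists below as well. Sums of the Sertoli markers were 149 and 149 FPKM in WT, 2072 and 1925 in KO, and 230 and 118 in EE_KO. Of 8 peritubular and endothelial markers 7 were higher in both KO libraries than in both WT libraries and Cnn1 was lower (sums of 3.48 to 3.81 FPKM in WT and 24.8 to 27.4 in KO). Of 8 leukocyte markers 7 were higher and Adgre1 overlapped (2.56 to 3.41 and 17.2 to 24.02). Several of these, such as Pdgfra and C1qa, passed the limit of 1 FPKM through KO, so no count of calls is given for these lists. Their part was not tested either. The salivary gland, the best known source of these kallikreins, had summed markers of 8.69 to 9.36 FPKM in WT and 18.1 to 21.6 in KO, with 1 of 2 tested called higher (Amy1) and 1 lower (Dcpp1). Smr2 and Smr3a were at 0 in all libraries, Dcpp1 and Muc19 were at 0 in both KO libraries, and Egf read 0.691 and 0.485 FPKM in KO against 0.577 and 0.574 in WT. Amy1 read 19.2 and 16.4 in KO against 1.91 and 2.53 in WT, and Ren1, too low to test, 1.44 and 1.11 against 0.302 and 0.239. In all, 3 of the 10 salivary markers were higher in both KO libraries than in both WT libraries, against 41.6% of all genes tested.

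The Klk genes outside the set split in the same cluster. There were 27, of which 11 were at 0 in every library and 2 were high enough to test; genes may have been left out of the set because of their values. Limma called both of these changed, as it did 86.2% of all genes tested. Klk1b16, which lies between Klk1b22 and Klk1b24, read 0.412 and 1.10 FPKM in WT, 3.41 and 3.90 in KO, and 0.640 and 0.385 in EE_KO. Its KO against WT difference was 1.43 on the log2 scale (SE 0.22), and it passed the limit of 1 FPKM through its KO libraries. With no such limit, limma's adjusted p was 0.00429. Klk1b9, an EGF-binding kallikrein, read 0.903 and 2.58 FPKM in WT, 0.320 and 0.265 in KO, and 1.33 and 1.61 in EE_KO. Its difference was -1.01 on the log2 scale (SE 0.28), and -0.56 without WT replicate 2, and it passed the limit through its WT and EE_KO libraries. With no limit, limma's adjusted p was 0.0427.

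Klk pseudogenes with less signal were also lower in KO, and are named after their values were seen. Klk1b7-ps was at 1.66 and 1.53 FPKM in WT and at 0 in both KO libraries, Klk1b23-ps at 0.207 and 2.68 against 0 and 0, and Klk2-ps at 0.690 and 0.615 against 0.0576 and 0.0596. For Klk1b23-ps this rests on WT replicate 2, which held 14 reads, against 1 in WT replicate 1. Klk1b3 and Klk1b4 stayed below 1 FPKM in all libraries. Of the distant relatives Klk4 to Klk15, none reached 0.4 FPKM in any library, and Klk5, Klk7, Klk9, Klk11 and Klk13 were at 0 in all.

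**Figure D4:**
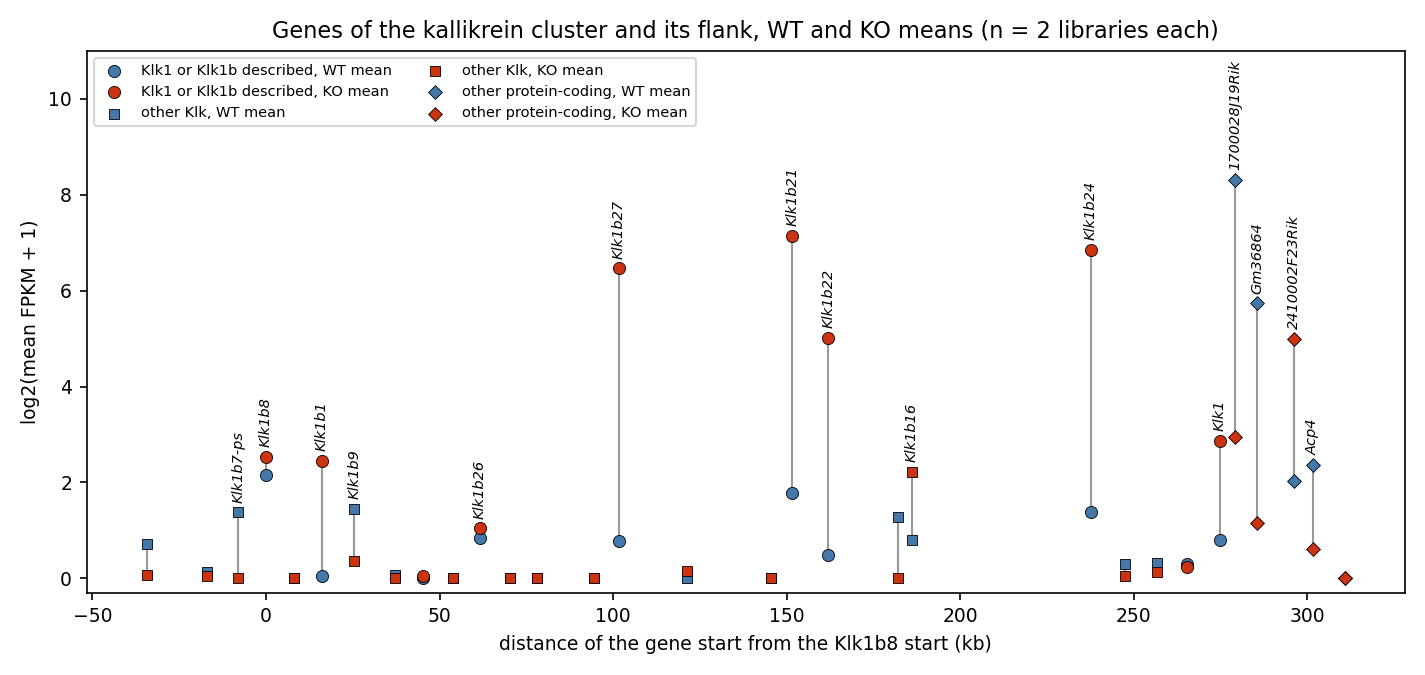
Mean level in WT (blue) and KO (red) on a log2 scale against the distance of each gene's start from that of Klk1b8, with a line joining the 2 means of a gene. Klk1b27, Klk1b21, Klk1b22 and Klk1b24 rise far above genes at or near 0 that lie between them, and the levels of 1700028J19Rik and Gm36864, just past Klk1, fall in KO.

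Past Klk1, the nearest genes fell in KO. 1700028J19Rik is on the minus strand, so it runs toward Klk1 and ends 193 bases from the end of Klk1. It fell from 347 and 286 FPKM in WT to 7.03 and 6.32 in KO (log2 difference -5.36, SE 0.12, limma adjusted p = 5.33e-08). Gm36864 fell by 4.59 (SE 0.14, limma adjusted p = 8.72e-08). It lies wholly inside 1700028J19Rik, on the other strand. The use of strand in counting is not given, so the fall of Gm36864 cannot be told apart from that of 1700028J19Rik. 2410002F23Rik, at 17104 bases beyond Klk1, rose from 3.24 and 2.97 FPKM to 32.4 and 29.5 (2.96, SE 0.27, adjusted p = 1.60e-05). Of the 10 protein-coding neighbours that are no Klk genes within 200 kb, 7 were tested. In KO, 2410002F23Rik was the one called higher and the other 6 were called lower. Of all genes tested, 38% were called higher and 48.2% lower. Acp4, Clec11a and 1700008O03Rik read below 1 FPKM in KO, so they passed the limit of 1 FPKM through their WT and EE_KO libraries.

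In the wider kallikrein-kinin system, 5 of 13 genes were tested, and 3 rose and 2 fell in KO against WT, where 38% and 48.2% of all genes tested were called higher and lower. Mme and Cpn1 passed the limit of 1 FPKM only through groups where they were high, so nothing is read from these counts. The complement and kallikrein inhibitor Serping1 rose from 1.51 and 1.42 to 32.2 and 23.3 FPKM (3.53, SE 0.19, limma adjusted p = 1.17e-06). The peptidase Ece1 rose by 2.85 (SE 0.18, adjusted p = 2.26e-06), and Mme, which degrades kinins and was named with Ace after the values were seen, rose by 2.23 (SE 0.20, adjusted p = 0.000541 with no limit on low values, since it passed the limit through KO). Cpn1, a kininase subunit, fell by 2.43 (SE 0.15) and passed the limit through its WT and EE_KO libraries. With no limit, limma's adjusted p for Cpn1 was 8.38e-05. Ace, also a kininase and with a germ cell form of its own, fell by 2.38 (SE 0.28, limma adjusted p = 6.97e-05). The substrates and receptors were low: Kng1 and Kng2 stayed under 0.2 FPKM in every library, Bdkrb1 read 0.796 and 0.506 in WT and 0 and 0.0802 in KO, and Bdkrb2 1.28 and 1.12 against 0.132 and 0.121. In EE_KO against WT limma called 0 of the 5 genes tested, 0 had an unadjusted p below 0.05, and voom called 0.

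The genes whose pattern was most like the members were found by Pearson's r over the 6 libraries with the mean log2(FPKM + 1) of the 7 tested members. The highest were Rhox8, Zfp36, Wfdc10, Trank1, Slc13a2, Cyp17a1, Arxes2 and Pepd, with r from 0.9992 to 0.9996. Rhox8 is a homeobox gene of Sertoli cells and read 5.75 and 6.42 FPKM in WT, 110.5 and 109 in KO, and 13.2 and 5.72 in EE_KO. Cyp17a1, the Leydig enzyme that leads to androgens, read 13.6 and 15.8 in WT, 416 and 386 in KO, and 39.98 and 13.9 in EE_KO. All 8 were high in KO, and higher in EE_KO replicate 1 than in replicate 2. This follows in part from choosing them for likeness to the members. Such likeness is common, since 28.6% of the 15359 other genes had an r above 0.95 and the 6 points share their libraries. Among the 7 members, Klk1b22 had the highest r with the mean at 0.998, and Klk1b8 the lowest at 0.277. Each member is part of that mean, which raises its own r.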

How the data were processed

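RNA was measured in 6 libraries, 2 in each of 3 groups, made with a SMARTer mRNA kit from 1.3 µg of total RNA, per the labels. The deposited values were FPKM computed by the authors, per the file headers. The submitters' processing notes name the builds GRCm38 and mm10. For the aligner, counter, annotation, read length and use of strand, the sources used here give nothing. Gene IDs matched GENCODE M21 for 54495 of 54532 genes. The kallikreins and the lists were chosen with earlier results of these data known.

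Tests were limma 3.58.1 (R 4.3.3) on log2(FPKM + 1), 1 model of the 3 groups with a mean-variance trend and Benjamini-Hochberg adjustment at 0.05. It covered the 15366 genes with a mean of at least 1 FPKM, without 535 short RNA genes and 6 lower entries of repeated symbols. Adding 1 FPKM understates changes of low genes. Whole reads were recovered as FPKM times length times a size inferred for each library from the values, within 0.01 read. Sequences were aligned with Biopython 1.88, and the method was tested on simulated data. No protein sequences were used, so the planned protein identity was replaced by coding identity.

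Genes named were all 10 members, other Klk genes with a mean of at least 1 FPKM, up to 3 called genes of smallest p in each other list, the 8 most alike genes, and protein-coding neighbours within 200 kb. Others named are range ends or were chosen after their values were seen. Alternatives were pseudocounts of 0.1 and 0.5, no filter, a mean of at least 5 FPKM, TPM, quantile normalization, a replicate block, voom on recovered reads, no trend, and each library left out.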

Additional observations from a re-analysis of the deposited data

How the results depend on the processing

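Limma called 0 kallikreins in EE_KO against WT under every alternative that kept 2 libraries in each group. The median log2 difference of the 10 kallikreins in KO against WT was 2.22. It was 4.01 with a pseudocount of 0.1, 2.82 with 0.5, 3.59 with TPM and 4.83 with voom. Leaving out each library gave 2.12 to 2.33. In EE_KO against KO the median was -2.21, and -3.93, -2.80, -3.53 and -4.47 under the same 4 settings, with -2.49 to -1.92 when each library was left out. In the main fit both medians lie between Klk1 and Klk1b1, at 2.08 and 2.37 in KO against WT. These genes had 23 and 1 reads in WT, so the medians depend on the pseudocount. With a pseudocount of 0.1 the differences of Klk1 and Klk1b1 were 2.97 and 5.05. The medians describe neither the members highest in KO nor those whose KO and WT libraries overlapped. TPM sets each library to the same sum, while FPKM summed to 335071 and 321463 in WT and 251584 and 232716 in KO. It therefore raises KO values more than WT values, and makes the added 1 smaller beside each value. The part of each in the shift with TPM was not tested. The median of all genes in KO against WT moved from -0.29 to 0.09 with TPM and -0.02 with quantile normalization, and calls went from 5840 higher and 7399 lower to 6825 and 6408 with TPM and 6574 and 6669 with quantile normalization. Of other Klk genes, 2 were called in KO against WT, 4 with no filter (16 tested) and 0 at a mean of at least 5 FPKM (0 tested). Of the kinin genes, 5 were called, 9 with no filter and 3 at a mean of at least 5 FPKM (3 tested). With each library left out these stayed at 2 and 5.

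Single genes in EE_KO against WT changed sign when a library was left out. Their log2 differences ran from -0.68 to 1.58 for Klk1b21, -0.28 to 2.14 for Klk1b27, -0.18 to 0.85 for Klk1b22 and -0.057 to 0.25 for Klk1b1. They ran from -0.47 to 0.35 for Klk1, -0.31 to 0.62 for Klk1b8, -0.54 to 0.38 for Klk1b9 and -0.475 to 0.094 for Klk1b16.

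The replicate numbers did not pair the samples: deviations of same-numbered libraries correlated at -0.03, 0.05 and 0.09. With the replicate block 0 kallikreins, 2 other Klk genes and 5 kinin genes were called.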
